A study of Mus musculus with 6 samples.

Results

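The mRNAs of 8 myosin light chains (Myl1, Mylpf, Myl4, Myl2, Myl3, Myl6, Myl6b and Myl9) and of 2 kinases that act on them (Mylk and Mylk2) were followed in C2C12 cells, a mouse myoblast line that fuses into myotubes when serum is withdrawn. The 10 genes were chosen by symbol, out of 18194 genes on the array. They were read by 15 probe sets, sets of short probes that the platform annotation pairs with 1 of these genes and no other, out of 34958 such probe sets in the table. A further 2 probe sets pair Myl6 with 2 other genes and were left out. Parental cells were harvested in growth medium with 10% fetal bovine serum, and on days 0, 2 and 4 of culture in medium with 2% horse serum, day 0 being taken directly after the switch. Growth medium and day 0 cells may differ in cell density (confluence) as well as in medium, and the part of each was not tested. At day 0 there were also 2 stable transfectants kept in G418 at 500 µg/ml, cells with a hairpin vector against Rp58 (shRp58) and control cells, whose vector is given in the labels both as LacZ and as a control hairpin. Whether each transfectant was a pool or a clone is not given in the sources used here. Each of the 6 groups was 1 array, so no difference has a replicate error or a p-value, the order of close values has no replicate check, and precision is limited by there being so few arrays.

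Each myosin head carries an essential and a regulatory light chain wrapped round its neck, where they stiffen the lever arm. Myl1, Myl3, Myl4, Myl6 and Myl6b encode essential chains and Mylpf, Myl2 and Myl9 regulatory ones, and muscles are told apart by which of them they use. Mylk encodes the kinase that phosphorylates the regulatory chain of smooth and non-muscle myosin, and Mylk2 the kinase of skeletal muscle, where the phosphate tunes force rather than starting contraction. Rp58, the product of Zbtb18, is a zinc finger repressor.

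Values are the deposited log2 values, and a difference is between 2 arrays. The 4 parental arrays had medians of 8.26 to 8.27 over all probe sets and the 2 stable-line arrays 7.15, so both sets were read apart. Zbtb18 stood at 11.16 in shRp58 cells and 11.69 in control cells, a difference of -0.53 that did not reach 2-fold. All 10 skeletal muscle markers lay above the array median at days 2 and 4 and in both stable lines. Heart markers were mixed. Myl7, the atrial regulatory light chain, and Myh6 lay below the array median on all 6 arrays. Of 8 heart markers, 3 (Nppb, Nkx2-5 and Gata4) were above it on each parental array. On each stable-line array 4 were above it, the same genes and Tbx5. In these bulk cultures fewer cells of a type and less RNA per cell cannot be told apart.

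Only muscle light chains and Mylk were at least 2-fold apart in any comparison, taking for each gene its brightest probe set. Between growth medium and day 0, 3 of the 10 genes were at least 2-fold higher at day 0, against 2.91% of the 13242 genes that reached the filter on low values, which all 10 passed. At day 2 against day 0 there were 3 again (2.67% of all genes), at day 4 against day 2 there was 1 (0.808%), and at day 4 against day 0 there were 5 (3.83%). None of the 10 was 2-fold lower in the parental course, where 0.317%, 2.96%, 0.808% and 5.66% of all genes were, in the same order of comparisons. With shRp58, 2 of 10 were at least 2-fold lower than in control cells (0.619% of all genes) and 0 higher (0.0529%). The median difference of the 10 genes was 0.41, 0.59, 0.12 and 0.75 in those 4 parental comparisons and -0.45 with shRp58, where the median of all genes was 0.10, -0.01, -0.03, -0.04 and -0.01.

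**Figure D1:**
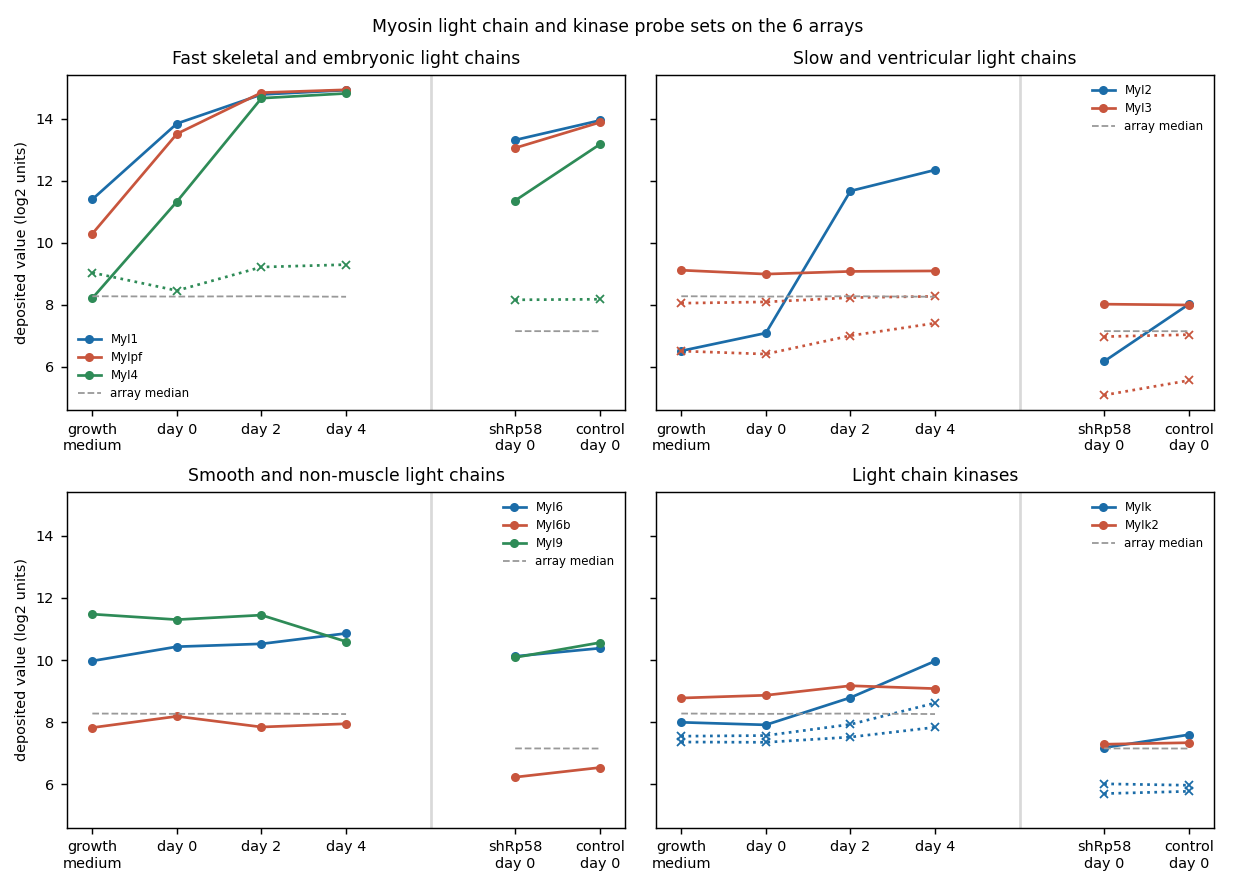
Deposited log2 value (vertical axis) of every probe set of the 10 genes on the 4 parental arrays (left of the grey line) and the 2 stable-line arrays (right). Circles and solid lines are the brightest probe set of a gene, crosses and dotted lines its other probe sets, and dashed grey lines the array median. On their brightest probe sets Myl1, Mylpf and Myl4 reach 14.66 to 14.93 at days 2 and 4, Myl2 is low until day 0, and Myl3, Myl6b and Mylk2 stay near their first value.

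The fast skeletal light chains were already higher at day 0. Myl1, the fast essential chain, stood at 11.40 in growth medium and read 13.84, 14.78 and 14.92 on days 0, 2 and 4. Mylpf, the fast regulatory chain, read 10.29, 13.51, 14.84 and 14.93 over the same arrays. Both genes were already well above the array median in growth medium and made most of their climb between growth medium and day 0. Day 0 was 2.44 above growth medium for Myl1, a 5.44-fold difference and the 32nd highest of 13242 genes. For Mylpf it was 3.22, or 9.32-fold, the 11th highest. On the log2 scale 69.4% of the whole difference between day 4 and growth medium was present at day 0 for Myl1 and 69.4% for Mylpf, and 96.0% and 98.0% at day 2. These shares are taken against day 4 values near the top of the scale.

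At day 2 Mylpf was a further 1.33 above day 0. Myl1 was 0.94 above, just short of 2-fold, and passed it after quantile normalization of all arrays (1.06) or cyclic loess (1.05). Between day 2 and day 4 the differences were 0.14 for Myl1 and 0.09 for Mylpf. These late values lie against the top of the scale: at day 4 Mylpf was 0.16, Myl1 0.18 and Myl4 0.28 below the brightest probe set of the array. A bright signal can level off on an array, so small differences at days 2 and 4 bound the change of these 3 genes poorly.

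Myl4, the essential chain of embryonic muscle and of the atrium, had 2 probe sets that disagreed. Its brighter probe set read 8.21 in growth medium, just under the array median, then 11.33 at day 0, 14.66 at day 2 and 14.81 at day 4. The climb was split almost evenly, with 3.11 at day 0 above growth medium (8.66-fold) and 3.33 at day 2 above day 0 (10.1-fold), and only 0.15 between day 2 and day 4. Day 4 stood 6.60 above growth medium, a size that is not exact because it runs from a dim signal to one near the top of the scale. The other Myl4 probe set did not follow. It read 9.03, 8.46, 9.22 and 9.29 over the 4 parental arrays, was 0.58 lower at day 0 than in growth medium, and never differed by 2-fold. With both averaged, the range over the parental arrays was 3.43 and day 0 stood 1.27 above growth medium, or 2.41-fold.

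Myl2, the regulatory chain of slow skeletal muscle and of the ventricle, first passed 2-fold at day 2. It read 6.51 in growth medium and 7.09 at day 0, both below the array median, then 11.67 at day 2 and 12.35 at day 4. The gene was thus dim until day 0 and clearly above the median from day 2 on. Day 2 stood 4.58 above day 0, the highest of 13242 genes, and only 9.86% of the difference between day 4 and growth medium was present at day 0. Because it starts from a dim signal, the size of that difference is not exact. Heart markers did not move with Myl2 and Myl4: the mean of the 8 markers relative to the array median was -0.01 in growth medium and -0.21, -0.30 and -0.33 on days 0, 2 and 4, and the marker list was summed at 11.70, 11.55, 11.31 and 11.21 on the log2 scale.

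Myl3, the essential chain that partners Myl2 in slow and ventricular myosin, showed no such course. Its brightest probe set read 9.11, 8.99, 9.07 and 9.09 from growth medium to day 4, a span of 0.12. A second read between 8.05 and 8.27. The third read 6.51, 6.41, 7.00 and 7.40, all below the array median, and was 0.99 higher at day 4 than at day 0. On their brightest probe sets Myl1, Mylpf and Myl4 were thus at least 2-fold above growth medium from day 0 on and Myl2 from day 2 on. No Myl3 probe set reached 2-fold, and neither did the second Myl4 probe set.

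The sequence before the start site is shown for the 4 light chains that were at least 2-fold higher in the parental course and for Myl9, which was not, so that the letters near their starts can be compared. Each is the 250 bases before a RefSeq start in GRCm38.p6, 5′ to 3′ on the gene's strand, with matches to any of 5 motifs in capitals. Searched on both strands were the E-box CANNTG, where MyoD and myogenin bind, the TATA box TATAAA, the MEF2 box and the CArG box of serum response factor, and ACATCTG, the core of the site known for Rp58, which itself holds an E-box. RefSeq gave a window for 9 of the 10 genes, 11 windows in all.
Myl1, chr1:66945057-66945306, minus strand: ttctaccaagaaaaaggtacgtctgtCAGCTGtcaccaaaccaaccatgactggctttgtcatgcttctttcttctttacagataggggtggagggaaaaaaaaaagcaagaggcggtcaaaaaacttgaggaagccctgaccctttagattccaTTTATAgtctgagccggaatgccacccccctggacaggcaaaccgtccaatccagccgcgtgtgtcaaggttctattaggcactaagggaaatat
Mylpf, chr7:127211358-127211607, plus strand: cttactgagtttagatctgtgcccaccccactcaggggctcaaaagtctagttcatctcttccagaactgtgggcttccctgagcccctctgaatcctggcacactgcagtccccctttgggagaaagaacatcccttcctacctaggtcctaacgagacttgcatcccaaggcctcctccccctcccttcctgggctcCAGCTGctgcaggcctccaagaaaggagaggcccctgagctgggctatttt
Myl4, chr11:104550413-104550662, plus strand: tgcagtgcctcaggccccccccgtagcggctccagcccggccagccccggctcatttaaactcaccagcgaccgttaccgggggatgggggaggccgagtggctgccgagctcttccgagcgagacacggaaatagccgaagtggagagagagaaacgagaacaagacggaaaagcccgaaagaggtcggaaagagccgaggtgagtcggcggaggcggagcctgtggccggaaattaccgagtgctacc
Myl2, first start, chr5:122092474-122092723, plus strand: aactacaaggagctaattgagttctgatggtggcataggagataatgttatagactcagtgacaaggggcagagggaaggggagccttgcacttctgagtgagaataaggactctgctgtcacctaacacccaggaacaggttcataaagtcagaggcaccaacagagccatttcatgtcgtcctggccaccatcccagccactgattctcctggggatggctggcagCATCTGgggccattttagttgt
Myl2, second start, chr5:122092939-122093188, plus strand: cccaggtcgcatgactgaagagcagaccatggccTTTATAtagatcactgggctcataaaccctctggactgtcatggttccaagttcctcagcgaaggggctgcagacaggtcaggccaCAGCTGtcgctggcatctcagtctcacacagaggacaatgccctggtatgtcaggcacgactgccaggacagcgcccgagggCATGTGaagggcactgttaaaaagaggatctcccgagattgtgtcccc
Myl9, chr2:156775214-156775463, plus strand: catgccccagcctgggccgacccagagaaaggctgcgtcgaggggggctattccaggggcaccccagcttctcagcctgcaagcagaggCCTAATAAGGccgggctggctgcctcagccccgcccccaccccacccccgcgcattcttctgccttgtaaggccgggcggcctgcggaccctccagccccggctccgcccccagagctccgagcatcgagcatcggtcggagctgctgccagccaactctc

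Myl1 held 1 E-box, CAGCTG at -224 to -219, and Mylpf 1 with the same letters at -51 to -46, counting back from -1, the base before the start. Myl2 held a CATCTG at -22 to -17 before its first start, and CAGCTG at -130 to -125 and CATGTG at -48 to -43 before its second. The Myl4 window held no match to any of the 5 motifs, nor did that of Mylk. Of the genes that stayed within 2-fold in the parental course, Myl3 held CAGGTG at -189 to -184 and Myl6b CAACTG at -127 to -122. Myl6 held CATCTG at -71 to -66 before its first start, and Myl9 held no E-box. E-boxes thus lay before genes that were 2-fold higher and before genes that were not. An E-box is common at this length, with 66.2% of 32851 promoter windows holding at least 1. The TATA letters lay on the opposite strand in Myl1 (-95 to -90) and before the second Myl2 start (-216 to -211), against 12.4% of windows. CArG boxes, in 1.47% of windows, were found before Myl9 (-161 to -152), Myl3 (-85 to -76) and the second Myl6 start (-50 to -41). The Rp58 core letters, in 3.71% of windows, and the MEF2 box, in 2.92%, were in none of the 11 windows, which says nothing of sites elsewhere.

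The smooth and non-muscle light chains moved little. Myl6, an essential chain found in most cells, read 9.97 in growth medium and 10.43, 10.52 and 10.86 on days 0, 2 and 4. Each step was upward and the sum was 0.89, or 1.85-fold. Myl6b, its neighbour on the chromosome and also an essential chain, read 7.82, 8.18, 7.84 and 7.94, below the array median on all 4 arrays. Myl9, the smooth muscle regulatory chain, was the only light chain whose brightest probe set was lowest at day 4. It read 11.48, 11.30 and 11.45 up to day 2, and 10.59 at day 4, which was 0.85 below day 2 and the 172nd lowest of 13242 genes. It did not reach 2-fold.

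Smooth muscle markers did not share a single course with Myl9. Their list of 8 was summed at 14.82, 14.51, 15.18 and 15.37 log2 units from growth medium to day 4, with 5 members above the array median in growth medium and 4 at each later time. Cnn1, a thin filament protein of smooth muscle, read 7.28 at day 4 and 9.20 in growth medium, and Tagln, an actin-bundling protein, 11.70 at day 4 and 12.55 in growth medium. At day 0 they already differed from growth medium by -1.51 and -1.94, and Tagln was 0.48 higher at day 4 than at day 2. Myocd read 7.79 at day 4 and 8.04 in growth medium. Higher at day 4 than in growth medium were Synpo2 (13.62 and 10.46), Acta2 (14.51 and 14.18), Smtn (11.22 and 10.79) and Lmod1 (7.97 and 7.51). Myh11, the smooth muscle myosin heavy chain, was below the array median throughout. The part of these markers in the Myl9 difference was not tested.

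Of the kinases, Mylk was higher late and Mylk2 nearly level. The brightest Mylk probe set read 7.99 in growth medium and 7.91, 8.79 and 9.97 on days 0, 2 and 4. It lay below the array median until day 0 and above it from day 2. Day 4 was 2.06 above day 0, or 4.16-fold, and 1.18 above day 2, so more of the difference from day 0 came after day 2 than before it. The other probe sets went the same way with smaller sizes: one read 7.54, 7.56, 7.92 and 8.61, the other 7.36, 7.35, 7.52 and 7.83. With all 3 averaged, day 4 was 0.73 above day 2 and no longer 2-fold apart. The gene is known to make more than 1 protein, including a long kinase and the short, kinase-free telokin, and the files do not say which transcript each probe set reads.

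Some fibroblast markers were higher late as well. Of 5, 2 lay above the array median in growth medium and at day 0 and 4 at days 2 and 4, and their sum was 10.86, 11.61, 12.18 and 12.53 log2 units. Lum, a collagen-binding proteoglycan, was 2.41 higher at day 4 than at day 0 and Dpt 1.01 higher. Col1a1, a collagen chain, was 1.19 higher at day 0 than in growth medium and 1.01 higher at day 4 than at day 0. Pdgfra, a growth factor receptor, was 0.96 lower at day 4 than at day 2, while Thy1, a surface marker, stayed below the array median on all 6 arrays. Their part in the Mylk difference was not tested. Mylk2 read 8.77, 8.86, 9.17 and 9.08 from growth medium to day 4, a span of 0.40.

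**Figure D2:**
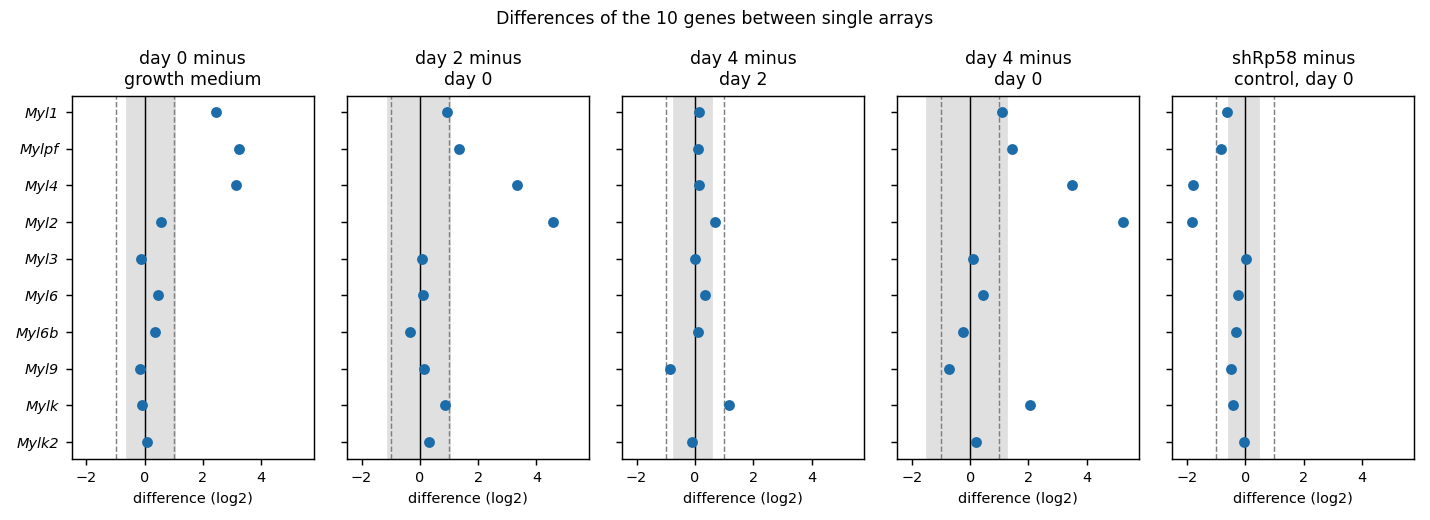
Difference of log2 values (horizontal axis) of the 10 genes in 5 comparisons of single arrays, 1 row per gene. Grey bands hold the central 95% of the 13242 genes that passed the filter and dashed lines mark 2-fold. Myl1, Mylpf and Myl4 stand out at the first step, Myl4 and Myl2 at the next and with shRp58, and Mylk between day 2 and day 4.

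With shRp58 the same 4 skeletal light chains were the lowest of the 10 genes. Myl2 read 6.17 in shRp58 cells and 8.01 in control cells, a difference of -1.84 and the fifth lowest of 13242 genes. Myl4 read 11.36 in shRp58 cells and 13.17 in control cells, a difference of -1.81, next in that order. Both were well past 2-fold lower with the hairpin, by 3.58-fold and 3.51-fold. In shRp58 cells Myl2 lay below the array median of 7.15, so its size is not exact. The second Myl4 probe set read 8.16 in shRp58 cells and 8.18 in control cells, and the mean over both gave -0.91 for the gene.

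The fast chains differed less between the lines. Mylpf read 13.06 in shRp58 cells and 13.88 in control cells, a difference of -0.82, and Myl1 read 13.31 in shRp58 cells and 13.94 in control cells, a difference of -0.63. Neither reached 2-fold, and both lay outside the central 95% of all genes, which ran from -0.55 to 0.46. The brightest probe set of the control array read 14.54, so these chains were near the top of that scale as well. Myl3 read 8.02 in shRp58 cells and 7.99 in control cells on its brightest probe set, while its dimmest read 5.09 in shRp58 cells and 5.56 in control cells, so the sign for Myl3 depended on the probe set.

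The remaining genes lay inside the central range. Myl9 read 10.08 in shRp58 cells and 10.56 in control cells (-0.48), Myl6b 6.22 and 6.53 in the same order (-0.31), and Myl6 10.12 and 10.38 (-0.26). Mylk read 7.17 in shRp58 cells and 7.59 in control cells (-0.42), but its other probe sets differed by 0.05 and -0.07. Mylk2 read 7.28 in shRp58 cells and 7.33 in control cells. In all, 9 of 10 genes were below 0, and no value was past -0.5 outside the skeletal chains. Skeletal muscle markers moved the same way, with a sum of 15.38 log2 units in shRp58 cells and 15.84 in control cells, as did smooth muscle markers, at 13.81 in shRp58 cells and 14.30 in control cells. The fibroblast list was summed at 9.89 in shRp58 cells and 10.49 in control cells, with 3 of 5 markers above the array median in each. The part of these markers was not tested.

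The stable lines can be set beside the parental course only after normalizing all arrays together, and the offset between both sets was not the same at every level. As deposited, control minus parental day 0 cells had medians between -1.22 and -0.82 over 5 equal groups of probe sets by level. As a description, after quantile normalization Myl4 stood at 11.94 in shRp58 cells and 13.58 in control cells, against 10.91 in parental cells at day 0 and 14.51 at day 2. Myl2 stood at 6.98 in shRp58 cells and 8.71 in control cells, against 6.69 in parental cells at day 0 and 11.38 at day 2. For both genes control cells lay between the parental values of day 0 and day 2, and shRp58 cells nearer to day 0. Control cells were 2.67 above parental day 0 cells for Myl4, 2.02 for Myl2, 0.98 for Mylpf, 0.95 for Myl6, 0.78 for Mylk and 0.68 for Myl1, while Myl6b and Mylk2 stood at -0.48 and -0.41. The central 95% of all genes ran from -0.80 to 0.82. At least 2-fold higher there were thus 2 of the 10 genes, against 1.59% of all genes, and 0 were 2-fold lower (1.17%). shRp58 cells were above parental day 0 cells too, by 1.03 for Myl4, 0.29 for Myl2, 0.29 for Mylpf, 0.74 for Myl6, 0.39 for Mylk and 0.17 for Myl1. For these 6 genes shRp58 cells were thus, after this normalization, lower than control cells and higher than parental cells of the same day. Of the other genes, Myl3 was 0.14 above parental day 0 cells with shRp58, while Myl9, Mylk2 and Myl6b differed by -0.17, -0.45 and -0.78. The range of all genes was not taken for shRp58 against parental cells. As deposited, Myl1 read 13.31 in shRp58 cells and 13.84 in parental day 0 cells, and Mylpf 13.06 and 13.51 in the same order. Myl2 (6.17 and 7.09), Myl6 (10.12 and 10.43) and Mylk (7.17 and 7.91) were also lower in shRp58 cells as deposited. For these genes the direction against parental cells thus rests on the normalization. Only Myl4, at 11.36 and 11.33, was not lower as deposited.

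**Figure D3:**
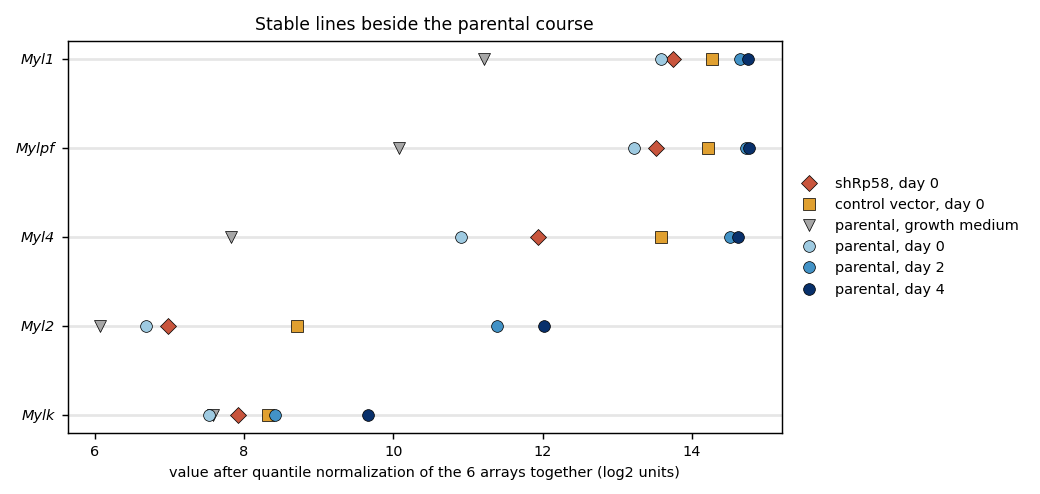
Value after quantile normalization of the 6 arrays together (horizontal axis, log2 units) for 5 genes, 1 row each. Diamonds are shRp58 cells, squares control cells, the triangle parental cells in growth medium and circles parental cells at days 0, 2 and 4. In each row shRp58 cells lie between parental day 0 and control cells, and control cells below parental day 2. Genes not shown did not all do so. Myl6 stood at 10.75 in shRp58 cells and 10.96 in control cells, above 10.56 in parental cells at day 4. Myl6b stood at 7.03 in shRp58 cells, below 7.81 in parental cells at day 0.

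The genes closest in course were found by the root mean square difference of centred log2 values over the 4 parental arrays. Myog, the myogenic regulator, was closest to Myl1 (0.06), followed by Actc1 (0.10) and Acta1 (0.11), the cardiac and skeletal actins. Tnnc1, the slow troponin C, was closest to Mylpf (0.02), then Tnni1 (0.20) and the fusion protein gene Mymk (0.23). Trim63, a muscle ubiquitin ligase, was closest to Myl4 (0.11), ahead of Klhl41 (0.19) and Smpx (0.20). For Myl2 no gene was as near: Csrp3, the muscle LIM protein, lay at 0.26, the fatty acid transporter Cd36 at 0.40 and the slow heavy chain Myh7 at 0.52. These distances are not on an equal footing. Acta1 (14.90 and 14.93 at days 2 and 4) and Tnnc1 (14.73 and 14.86) lay near the top of the scale, like Myl1 and Mylpf. Signals that level off there can look alike, whereas Myl2 read 11.67 and 12.35. Around Mylk were Ms4a4d (0.11), the matricellular gene Ccn3 (0.12) and Padi2 (0.12).

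These neighbours were set beside the light chains in the stable lines, whose difference took no part in choosing them. With shRp58 the 3 neighbours of Myl1 differed by -0.72 (Myog), -0.78 (Actc1) and -0.76 (Acta1), and Myl1 by -0.63. Csrp3, Cd36 and Myh7 differed by -1.88, -1.50 and -2.00, and Myl2 by -1.84. Tnnc1, Tnni1 and Mymk differed by -0.89, -1.06 and -1.04, and Mylpf by -0.82. Trim63, Klhl41 and Smpx differed by -1.37, -1.13 and -1.48, between the -1.81 of the brighter Myl4 probe set and the -0.91 of both averaged. For Mylk the neighbours spread from -0.84 (Ccn3) to -0.09 (Ms4a4d).

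Most sarcomeric heavy chains, which the light chains bind, were also higher in the parental course and lower with shRp58. Of 8 on the array 6 passed the filter. All 6 were at least 2-fold higher at day 4 than at day 0 (median 4.20), against 3.83% of all genes. With shRp58, 5 were at least 2-fold lower (median -1.69), against 0.619% of all genes. Myh4, Myh8 and Myh7b passed the filter only through parental values after day 0, so the filter helped to set these counts. Myh2 and Myh6, which did not pass, differed by 0.67 and 0.28 at day 4 against day 0, and by -0.11 and 0.11 with shRp58. Myh7b lay below the array median on all 6 arrays, and Myh4 on both stable-line arrays. Myh3, the embryonic chain, read 8.09, 12.27, 14.40 and 14.55 from growth medium to day 4, with 2.13 at day 2 above day 0 where Myl4 had 3.33. Myh7, the slow chain, read 7.11, 8.66, 11.81 and 13.29, and was 1.48 higher at day 4 than at day 2 where Myl2 was 0.68 higher. Myh4, the adult fast chain, was 3.28 higher at day 4 than at day 2, where the fast light chains differed by 0.14 and 0.09 close to the top of the scale. Among myosin binding proteins C, which clamp the thick filament, 2 of 3 were at least 2-fold higher at day 4 than at day 0, Mybpc2 by 3.45 and Mybpc1 by 1.64.

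Other enzymes that act on the regulatory chain did not share a single course. Of 6 further light chain kinases that passed the filter, Mylk4 was at least 2-fold higher at day 4 than at day 0, by 2.12, and Cit lower. In that comparison 3.83% of all genes were 2-fold higher and 5.66% lower. Mylk4 read 7.90, 8.46, 9.98 and 10.58 from growth medium to day 4, and 7.51 in shRp58 cells against 8.10 in control cells. Mylk3, the heart kinase, was below the array median on all 6 arrays. Of 7 phosphatase subunits and inhibitors, 2 were at least 2-fold higher at day 4 than at day 0: Ppp1r12b, the targeting subunit of striated muscle, by 1.21, and Ppp1r14c, a phosphatase inhibitor, by 1.29. The catalytic subunit Ppp1cb differed by 0.26. With shRp58 none of these 13 kinase and phosphatase genes reached 2-fold in either direction. Few genes did at all, with 0.0529% of all genes 2-fold higher and 0.619% lower, so this count says little of these enzymes.

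**Figure D4:**
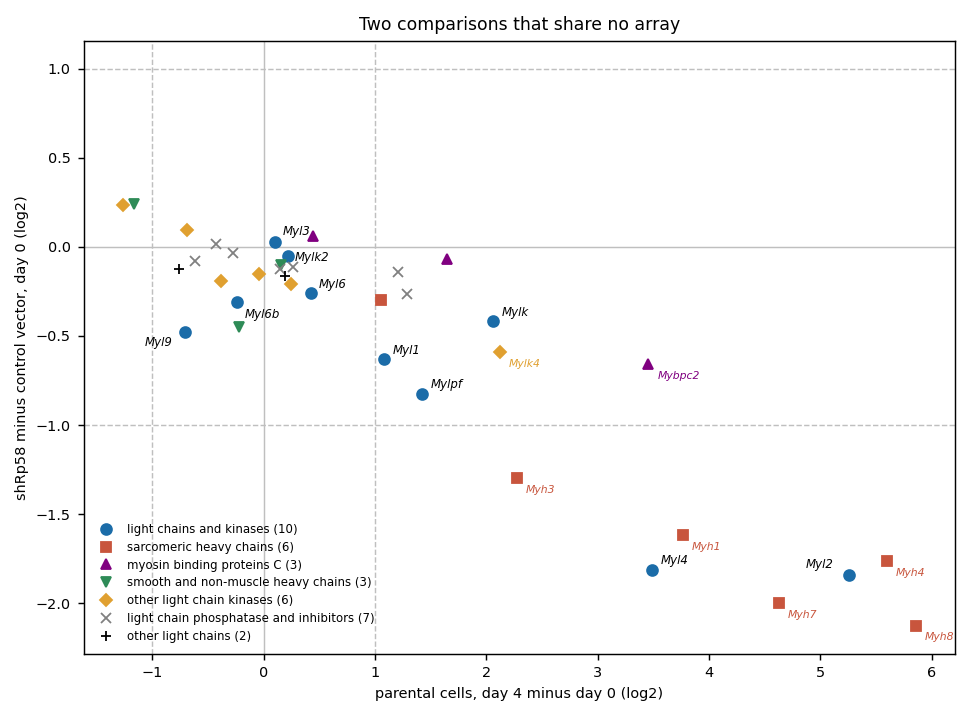
Day 4 minus day 0 in parental cells (horizontal axis, log2) against shRp58 minus control cells at day 0 (vertical axis, log2) for the 10 genes and for 27 related genes that passed the filter, with group sizes in the legend. Dashed lines mark 2-fold. Myl4 and Myl2 lie among the sarcomeric heavy chains at the lower right, and Mylk lies near Mylk4. Myl1 and Mylpf lie between 1 and 2 on the horizontal axis. No gene shown is 2-fold higher in both comparisons, and with shRp58 only 0.0529% of all genes were 2-fold higher.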

How the data were processed

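RNA from 6 cultures was hybridised to Affymetrix mouse whole-genome arrays. The deposited values are log2 values that the authors made with the RMA algorithm from 10 ug of cRNA, per the labels' protocols and the series' design text. The software version is not given in the sources used here, nor whether all arrays were normalized jointly. Groups were taken from the sample titles, with 1 array per group.

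The table held 45101 probe sets, of which the platform annotation gave 34958 exactly 1 gene, 932 several genes and 9211 none. All probe sets of the 10 genes were read, and in counts a gene was its brightest probe set by the mean of the 6 arrays. Genes whose highest value reached 7.95, the median of all values, were kept (13242 of 18194). Differences of log2 values were counted from 2-fold. With 1 array per group no test could be run. Counts and nearest courses were tested on simulated data. The members, lists and the rule for named genes (the 10 genes, the hairpin target, list members and the 3 nearest courses of each gene spanning at least 1 log2 unit) were chosen with earlier results of these data known. Of 39 related genes listed, 35 had a probe set of their own and 27 were kept. Motifs were searched in RefSeq promoters of GRCm38.p6. Alternatives were other scalings (limma 3.58.1 in R 4.3.3 for cyclic loess, Python 3.11.15 otherwise), filters, probe set rules and a 1.5-fold threshold.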

Additional observations from a re-analysis of the deposited data

How the results depend on the processing

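The difference of each of the 10 genes in the 5 comparisons was recomputed under 6 alternatives, and 294 of the 300 values kept their sign and their side of 2-fold. Part of this count was fixed in advance. The probe set rules could not change the 7 genes with 1 probe set, and median centring shifts all genes of a comparison by the same small amount. No difference of at least 2-fold changed sign under these alternatives. Median centring and quantile normalization within each set changed no call. Quantile normalization of all arrays and cyclic loess took Myl1 past 2-fold at day 2 against day 0. Averaging probe sets left 0 genes 2-fold higher at day 4 against day 2 and 1 lower with shRp58. Myl3 turned negative with shRp58 when its probe sets were averaged (-0.17) or the widest-ranging one was used (-0.47). At 1.5-fold, 5 genes were higher at day 2 against day 0, 2 higher and 1 lower at day 4 against day 2, 1 lower at day 4 against day 0 and 4 lower with shRp58. At that threshold 6.68% of all genes were higher at day 2 against day 0, 2.62% higher and 4.19% lower at day 4 against day 2, 14.0% lower at day 4 against day 0 and 2.25% lower with shRp58. Scaling moved the background most at day 0 against growth medium: 385 genes were higher and 42 lower as deposited, 275 and 71 after quantile normalization within the set and 289 and 88 over all arrays, so the share higher was 90.2%, 79.5% and 76.7%, and the median of all genes 0.10, -0.03 and -0.03. No paired analysis was possible because each group held 1 array. Signal near the top of the scale limits what Myl1, Mylpf and Myl4 can show at days 2 and 4, and dim signal limits Myl2 before day 2 and in shRp58 cells.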

Other observations

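Among the related genes, Cit and Myh10, which act in the cleavage furrow of dividing cells, differed the other way from the sarcomeric ones. Cit, citron kinase, which acts on the myosin light chain in cytokinesis, read 11.48, 11.23, 10.31 and 9.97 from growth medium to day 4, and Myh10, a non-muscle myosin heavy chain, read 12.29, 12.36, 11.70 and 11.19. At day 4 they were 1.26 and 1.16 below day 0. In shRp58 cells Cit read 9.64, against 9.41 in control cells, and Myh10 read 11.38, against 11.14 in control cells. The other non-muscle heavy chain with a bright signal, Myh9, differed by -0.22 at day 4 against day 0 and by -0.45 with shRp58. Of the widely expressed regulatory light chains, Myl12b was 1.18 higher at day 0 than in growth medium and lower by 0.76 at day 4 than at day 0, while Myl12a stayed between 14.10 and 14.45 on the parental arrays. These genes were singled out after their values were seen.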
